A study of Mus musculus with 6 samples.

Results

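Interferon-stimulated genes were examined in primary aortic endothelial cells of mice infused with angiotensin II (AngII) and of mice infused with saline. The genes were chosen by name from a list of 57 symbols that covers the interferon receptors, the transcription factors below them, the sensors of foreign nucleic acid and the antiviral proteins they induce. Of these, 54 were found among the 17067 genes of the deposited count table, and all 54 were among the 12277 genes tested. Mx2, Ddx58 and Tmem173 were not found under those symbols; the table lists Rigi and Sting1, the current symbols of Ddx58 and Tmem173, and these are given separately and not counted as members.

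The AngII group comprised 3 samples from wild-type C57BL/6 mice that received osmotic pumps at 8 weeks of age and were given AngII, the peptide hormone that constricts vessels and raises blood pressure, at 1000 ng per kg per minute for 14 days. The saline group comprised 3 samples from wild-type C57BL/6 mice of the same age whose pumps held saline for the same time. After infusion the aorta was cut into 2 mm pieces, which were laid on Matrigel with 20% fetal calf serum; the cells that migrated out from day 5 to day 7 were taken, so all 6 samples were grown outside the animal before RNA was taken. The labels do not say whether a sample is 1 animal, 1 culture or a pool, and p-values therefore describe only how these samples vary, which may reflect technical variation alone.

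Interferons are secreted proteins that warn neighbouring cells of infection. Type I interferons act through the receptor chains IFNAR1 and IFNAR2, and the kinases JAK1 and TYK2 then act on STAT2, which joins IRF9 in a complex that binds the interferon-stimulated response element (ISRE) of target promoters. Type II interferon acts through IFNGR1 and IFNGR2 and on promoters with the gamma-activated site (GAS). Endothelial cells respond to both, and many of the induced proteins bind viral RNA, block its translation or tag proteins with the ubiquitin-like modifier ISG15.

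Total counts were 22646065 to 25141992 in AngII samples and 21154724 to 23004780 in saline samples. The endothelial markers fixed for the check summed to 5155 to 5648 CPM (read counts scaled to the size of the library) in AngII samples and 5270 to 5352 CPM in saline samples; of 9 tested, 3 were higher and 5 lower. The leukocyte markers summed to 264.6 to 280.4 CPM in AngII samples and 271.8 to 276.2 CPM in saline samples, nearly all of it Cd68, while the pan-leukocyte gene Ptprc lay at 0 to 0.0400 CPM in AngII samples and 0 to 0.130 CPM in saline samples. Of 3 leukocyte markers tested, 1 was higher, the lysozyme gene Lyz2, with 3.32, 3.51 and 3.16 CPM in AngII samples, against 2.26, 2.54 and 2.73 CPM in saline samples (edgeR adjusted p = 0.023). Smooth muscle and pericyte markers summed to 7.56 to 9.21 CPM in AngII samples and 16.2 to 17.8 CPM in saline samples, with 3 of 4 tested lower, and mesothelial and epithelial markers to 2.14 to 2.72 CPM in AngII samples and 4.28 to 5.03 CPM in saline samples, with 1 of 2 tested lower. Fibroblast markers summed to 5.25 to 6.89 CPM in AngII samples and 3.51 to 4.14 CPM in saline samples, with the 1 tested marker, Pdgfra, higher. The part of these lists in the results below was not tested, and in bulk samples a change in the number of cells of a type cannot be told apart from a change in RNA per cell.

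The AngII libraries formed a gradient for these genes, rising from replicate 1 to replicate 3. AngII replicate 3 had the highest level of the AngII samples in 42 of the 54 members (77.8%), where it was highest in 36.4% of all tested genes. AngII replicate 1 had the lowest level of the AngII samples in 36 of 54, where it was lowest in 37.8% of all tested genes. Set against the mean of the saline samples, the median member was higher by 0.11 (log2) in AngII replicate 1, 0.18 in AngII replicate 2 and 0.25 in AngII replicate 3, while the saline samples lay at 0.02, -0.03 and 0.01. The endothelial marker Pecam1 ran the other way within the AngII group, at 2012, 1919 and 1825 CPM in AngII replicates 1 to 3. In saline replicates 1 to 3 it had 1824, 1862 and 1851 CPM. Cdh5 (1450, 1394 and 1306 CPM in AngII replicates 1 to 3) and Kdr (239, 221 and 205 CPM) fell likewise. Each of the other endothelial markers was also highest in AngII replicate 1 among the AngII samples. The part of these markers in the pattern was not tested, and values without AngII replicate 3 are given wherever they change a call.

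The promoters of Ifit3, Ifit3b and Ifit1, of Rsad2 and Isg15, of a guanylate-binding pair and of Ifitm2 are shown. These genes hold a match to the same response element and yet differ in how they moved. Ifit2 is not shown, because no match was found in the windows given for it. The sequences are RefSeq's on GRCm38.p6, read 5′ to 3′ on the gene's strand, with each match to the ISRE core in capitals. The core was searched as GAAA, any 2 bases and GAAA again, or on the other strand as TTTC, any 2 bases and TTTC, from 250 bases before to 50 bases after each start.
Ifit3, chr19:34583361-34583430, plus strand: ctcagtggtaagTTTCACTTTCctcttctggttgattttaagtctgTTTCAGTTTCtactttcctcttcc
Ifit3b, chr19:34607757-34607826, plus strand: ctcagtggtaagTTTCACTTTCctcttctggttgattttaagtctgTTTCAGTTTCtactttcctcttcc
Ifit1, chr19:34640773-34640842, plus strand: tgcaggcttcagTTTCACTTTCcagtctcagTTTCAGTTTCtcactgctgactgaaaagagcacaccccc
Rsad2, chr12:26456515-26456584, minus strand: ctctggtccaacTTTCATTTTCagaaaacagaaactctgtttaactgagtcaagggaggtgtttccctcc
Isg15, chr4:156200839-156200908, minus strand: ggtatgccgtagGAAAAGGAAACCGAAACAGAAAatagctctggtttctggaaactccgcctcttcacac
Gbp3, chr3:142559987-142560023, plus strand: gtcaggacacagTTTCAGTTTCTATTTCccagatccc
Gbp2, chr3:142620592-142620626, plus strand: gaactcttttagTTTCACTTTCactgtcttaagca
Ifitm2, chr7:140955982-140956019, minus strand: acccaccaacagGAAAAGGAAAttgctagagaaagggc

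The stretches of Ifit3 and Ifit3b were identical at all 70 bases, with cores starting 156 and 122 bases before the start of Ifit3 and 188 and 154 bases before that of Ifit3b. Ifit1 carried the same pair of core sequences, closer together, with 19 bases between the starts of the cores against 34 in Ifit3 and Ifit3b. A window was given for 44 of the 54 members and not for Dhx58, Zbp1, Oas2, Mx1, Usp18, Parp9, Parp10, Parp14, Ifi27 and Rtp4. The ISRE core was found in 18 of the 44 (40.9%), and in 370 of the 9545 tested genes that had a window (3.88%). It was found in 10 of 21 members that rose, in 4 of 9 that fell and in 4 of 14 that did not pass the test. The GAS core, searched as TTCNNNGAA, which reads the same on both strands, was found in 13 of the 44 (29.5%) and in 8.43% of the tested genes with a window, and in member windows 2 of its matches overlapped an ISRE core. A match describes letters only, and a gene with several windows was counted once if any of them matched.

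Interferon-stimulated genes were higher on balance with AngII, by small amounts and not uniformly. Of 54 members, 30 rose and 10 fell by edgeR's quasi-likelihood test (adjusted p under 0.05), against a background in which 29.0% of all tested genes were called higher, 28.6% lower and 57.6% in either direction. The members' median log2 fold change, AngII over saline, was 0.14 (1.10-fold), where the median of all tested genes was 0.00. The 40 members called had a median absolute log2 fold change of 0.30, where that of all 7072 genes called was 0.29. Zbp1, Ifit3b, Mx1, Ifit3, Gbp3 and Dhx58, 6 members, rose by 1.5-fold or more and 1, Lgals3bp, fell by as much, where 4.47% of all tested genes rose and 5.85% fell to that extent. All AngII samples lay above all saline samples in 31 members and below them in 11, against 31.3% and 31.4% of all tested genes. Separate groups, as named for single genes below, were therefore common among all tested genes. Without AngII replicate 3, 27 members rose and 10 fell, where 3354 of all 12380 genes tested rose and 3401 fell. In another fit the dependence of each library's counts on the GC content and length of transcripts was taken out. There 35 members rose and 8 fell, where 3737 of all 12277 genes tested rose and 3334 fell. Irf3, Irf7, Oasl1, Uba7, Isg20 and Bst2 then passed as higher, while Ifitm2, Ifitm3 and Rtp4 lost their calls.

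**Figure D1:**
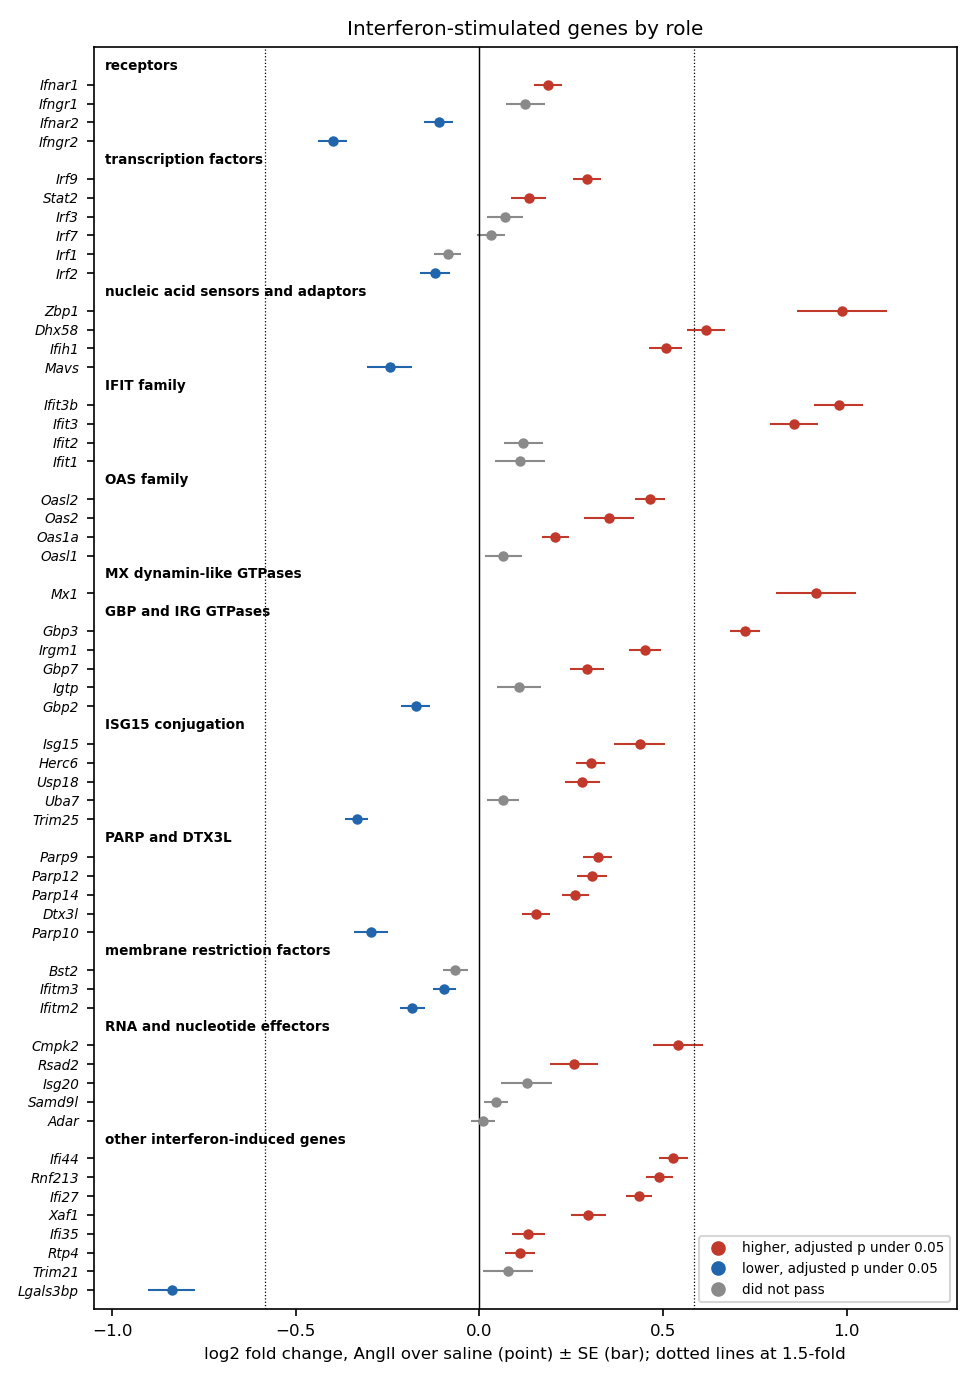
Log2 fold change, AngII over saline, with its standard error, for each of the 54 members, grouped by role (n = 3 samples a group). Red members rose and blue members fell at an adjusted p under 0.05, grey members did not pass, and the dotted lines mark 1.5-fold; Zbp1, at 0.99, and Lgals3bp, at -0.84, are the extremes.

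**Figure D2:**
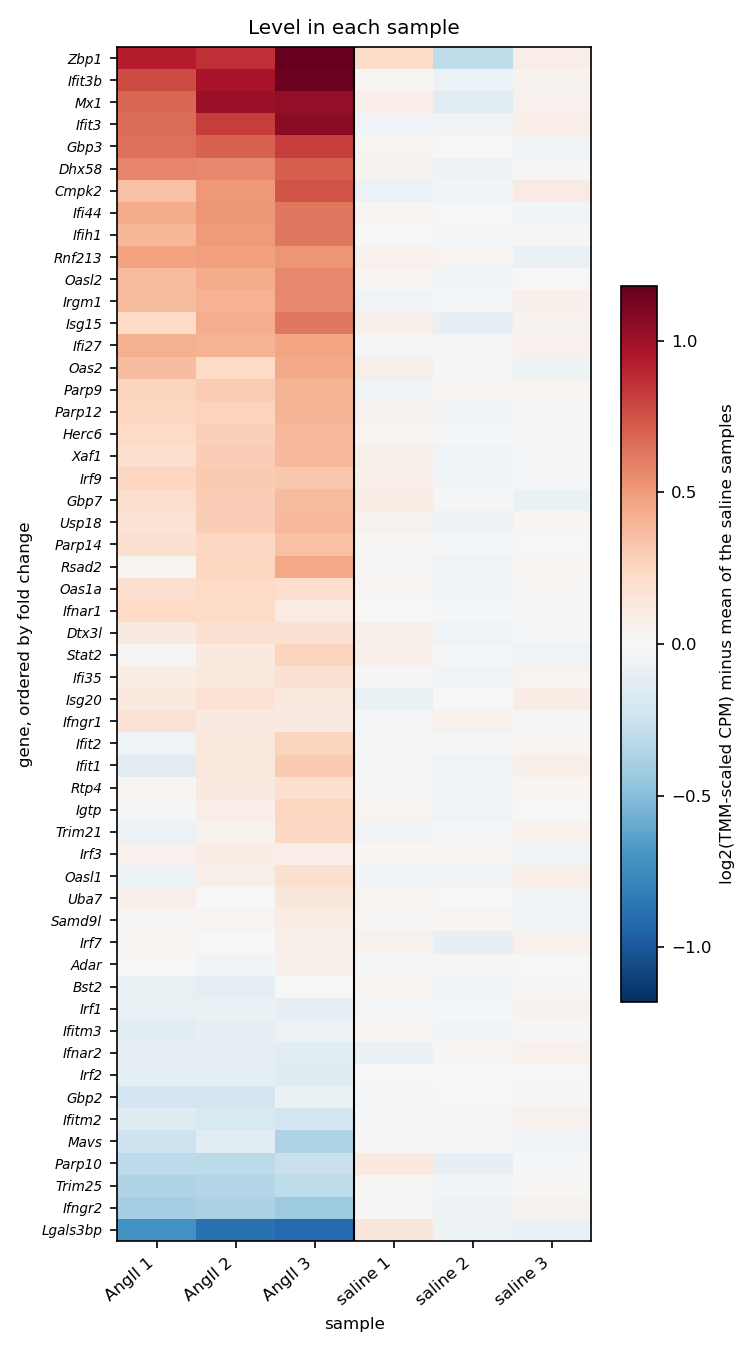
Level of each member in each sample, as log2 of scaled CPM minus the mean of the saline samples, with genes ordered by fold change. The AngII columns are on the left, and AngII replicate 3 has the deepest red among them in most of the genes that rose.

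The receptor chains were divided. Ifnar1, the low-affinity chain of the type I receptor, had 118, 116 and 107 CPM in AngII replicates 1 to 3, against 99.7, 98.9 and 101 CPM in saline replicates 1 to 3, and was higher by 0.19 (log2, SE 0.0385; edgeR adjusted p = 4.3e-04). Its partner Ifnar2, which binds the ligand tightly, had 57.9, 58.2 and 56.9 CPM in AngII samples, against 59.1, 63.2 and 64.5 CPM in saline samples. The Ifnar2 groups did not overlap and the gene was called lower (log2 fold change -0.11, edgeR adjusted p = 0.025), but the call was lost in DESeq2 (adjusted p = 0.076) and without AngII replicate 2, AngII replicate 3, saline replicate 2 or saline replicate 3 (0.050, 0.056, 0.086 and 0.12). Ifngr2, the signalling chain of the type II receptor, was the most changed receptor gene, with 61.5, 62.4 and 59.8 CPM in AngII samples, against 81.7, 77.2 and 83.3 CPM in saline samples. It was 1.32-fold lower (edgeR adjusted p = 6.3e-08). Ifngr1, the ligand-binding chain, had 28.3, 27.0 and 27.1 CPM in AngII samples, against 24.7, 26.0 and 24.8 CPM in saline samples, and just missed the threshold (edgeR adjusted p = 0.054). Each of the 4 receptor genes had separate groups, 2 upward and 2 downward, where 31.3% of all tested genes lay wholly above and 31.4% wholly below.

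Among the transcription factors, 2 of 6 rose and 1 fell, where 29.0% of all tested genes were called higher and 28.6% lower. Irf9, the DNA-binding subunit of the complex that forms after type I interferon, had 93.8, 97.5 and 98.6 CPM in AngII samples, against 82.3, 76.4 and 77.8 CPM in saline samples, and was 1.23-fold higher (edgeR adjusted p = 2.3e-06). Stat2 had 147, 157 and 174 CPM in AngII samples, against 151, 143 and 141 CPM in saline samples. The Stat2 groups overlapped, and its call (log2 fold change 0.13, edgeR adjusted p = 0.021) was lost without AngII replicate 3 (log2 fold change 0.06, adjusted p = 0.16), saline replicate 2 (0.090) or saline replicate 3 (0.091). Irf2, which competes with IRF1 for its sites, had 43.7, 43.3 and 42.5 CPM in AngII samples, against 46.7, 46.8 and 47.2 CPM in saline samples, with a log2 fold change of -0.12 (edgeR adjusted p = 0.017; DESeq2 0.072).

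The 3 other factors did not pass. Irf7, the main amplifier of type I interferon production, is itself a classical target of the pathway. It had 156, 152 and 160 CPM in AngII samples, against 157, 143 and 158 CPM in saline samples, with overlapping groups (log2 fold change 0.03 ± 0.0384, SE; edgeR adjusted p = 0.51). Irf3, which is present before infection and is activated by phosphorylation, had 34.9, 35.8 and 35.7 CPM in AngII samples, against 34.4, 34.5 and 32.6 CPM in saline samples (edgeR adjusted p = 0.23). Irf1, a target of type II interferon, had 58.1, 58.4 and 57.8 CPM in AngII samples, against 60.9, 60.8 and 63.4 CPM in saline samples (log2 fold change -0.09, edgeR adjusted p = 0.054). It lay lower in every AngII sample than in any saline sample by a small margin, and it was called lower with library totals as the only scaling (adjusted p = 0.029) and at a minimum of 5 CPM (0.034).

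Of the genes that detect foreign nucleic acid, the 3 sensors rose and the adaptor fell. Zbp1, which recognises Z-form nucleic acid and can trigger cell death, had 8.82, 8.41 and 10.5 CPM in AngII samples, against 5.37, 3.76 and 4.90 CPM in saline samples. It was 1.98-fold higher (log2 fold change 0.99 ± 0.122, SE; edgeR adjusted p = 1.5e-06), at the lowest level per length of any member. Dhx58, which encodes the RIG-I-like receptor LGP2, had 43.5, 43.2 and 47.4 CPM in AngII samples, against 30.0, 28.03 and 29.5 CPM in saline samples, and was 1.53-fold higher (edgeR adjusted p = 9.9e-09). Without AngII replicate 3 it was called higher but fell under the 1.5-fold line (log2 fold change 0.57). Ifih1, which encodes the double-stranded RNA sensor MDA5, had 154, 166 and 181 CPM in AngII samples, against 117, 117 and 119 CPM in saline samples, and was 1.42-fold higher (edgeR adjusted p = 1.7e-08).

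Mavs encodes the mitochondrial adaptor through which the RNA sensors signal. It had 23.6, 25.7 and 21.8 CPM in AngII samples, against 28.3, 28.2 and 27.4 CPM in saline samples, and was 1.18-fold lower (edgeR adjusted p = 0.0023). The groups of all 4 genes were separate. Rigi, the current symbol of the absent member Ddx58, encodes the RNA sensor RIG-I and had 188, 186 and 193 CPM in AngII samples, against 153, 155 and 155 CPM in saline samples (log2 fold change 0.29, edgeR adjusted p = 1.8e-07). Sting1, that of Tmem173, encodes the adaptor of the DNA sensing arm and averaged 30.7 ± 1.49 CPM in AngII samples and 32.8 ± 0.259 CPM in saline samples (SD, n = 3; edgeR adjusted p = 0.13).

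The IFIT genes, of whose proteins only some bind viral RNA with foreign 5′ ends, lie side by side on chromosome 19. They split into a pair that rose and a pair that did not pass. Ifit3 (chr19:34583531-34588731, GRCm38) had 409, 458 and 543 CPM in AngII samples, against 254, 252 and 274 CPM in saline samples, and was 1.81-fold higher (log2 fold change 0.86 ± 0.0665, SE; edgeR adjusted p = 3.4e-09). Ifit3b (chr19:34607970-34613401) had 125, 144 and 164 CPM in AngII samples, against 74.6, 69.9 and 75.6 CPM in saline samples, and was 1.97-fold higher (edgeR adjusted p = 6.2e-10). Both pairs of groups were clearly separate. Ifit3 and Ifit3b are close copies whose deposited counts carried fractions in all 6 columns, so how reads were divided between them is uncertain, while both rose. The counts of Ifit1 also carried fractions in all 6 columns and those of Ifit2 in 4. The division of reads is therefore uncertain for them and for the ratio of Ifit3 to Ifit1 as well. Outside this family, Ifnar1, Igtp, Dtx3l, Parp10 and Xaf1 likewise carried fractions in all 6 columns. Gbp3, Gbp7, Rnf213 and Bst2 carried them in 3, and the same limit holds for these genes.

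Ifit1 (chr19:34640871-34650009) had 233, 277 and 314 CPM in AngII samples, against 250, 247 and 267 CPM in saline samples (log2 fold change 0.11 ± 0.0673, SE; edgeR adjusted p = 0.17). Ifit2 (chr19:34550694-34576419) had 402, 453 and 500 CPM in AngII samples, against 410, 411 and 426 CPM in saline samples (edgeR adjusted p = 0.058). For both, AngII replicate 1 lay below every saline sample and AngII replicate 3 above every one. Without AngII replicate 1 both passed (log2 fold changes 0.22 and 0.20, adjusted p = 1.5e-04 and 1e-04), and without AngII replicate 3 their log2 fold changes were 0.00 and 0.04.

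The ratio between nearby genes within a sample does not depend on scaling between libraries. The log2 ratio of Ifit3 to Ifit1, taken from CPM and not corrected for length, was 0.81, 0.73 and 0.79 in AngII replicates 1 to 3, against 0.02, 0.03 and 0.04 in saline replicates 1 to 3. The mean was 0.77 ± 0.0439 in AngII samples and 0.03 ± 0.00843 in saline samples (SD, n = 3), and the AngII samples, which ran from 233 to 314 CPM for Ifit1, ran from 0.73 to 0.81 for the ratio. The log2 ratio of Gbp3 to Gbp2 was 0.80 ± 0.0184 in AngII samples and -0.10 ± 0.0445 in saline samples, that of Oasl2 to Oasl1 was 0.35 ± 0.0422 in AngII samples and -0.05 ± 0.0651 in saline samples, and that of Cmpk2 to Rsad2 was -2.73 ± 0.0280 in AngII samples and -3.02 ± 0.0793 in saline samples (SD, n = 3). These 4 pairs were chosen after their values were seen. In each, every AngII sample lay above every saline sample, which gives p = 0.1 in an exact two-sided permutation test (p = 0.1 after adjustment over the 4 pairs), the smallest that 3 against 3 samples allow.

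**Figure D3:**
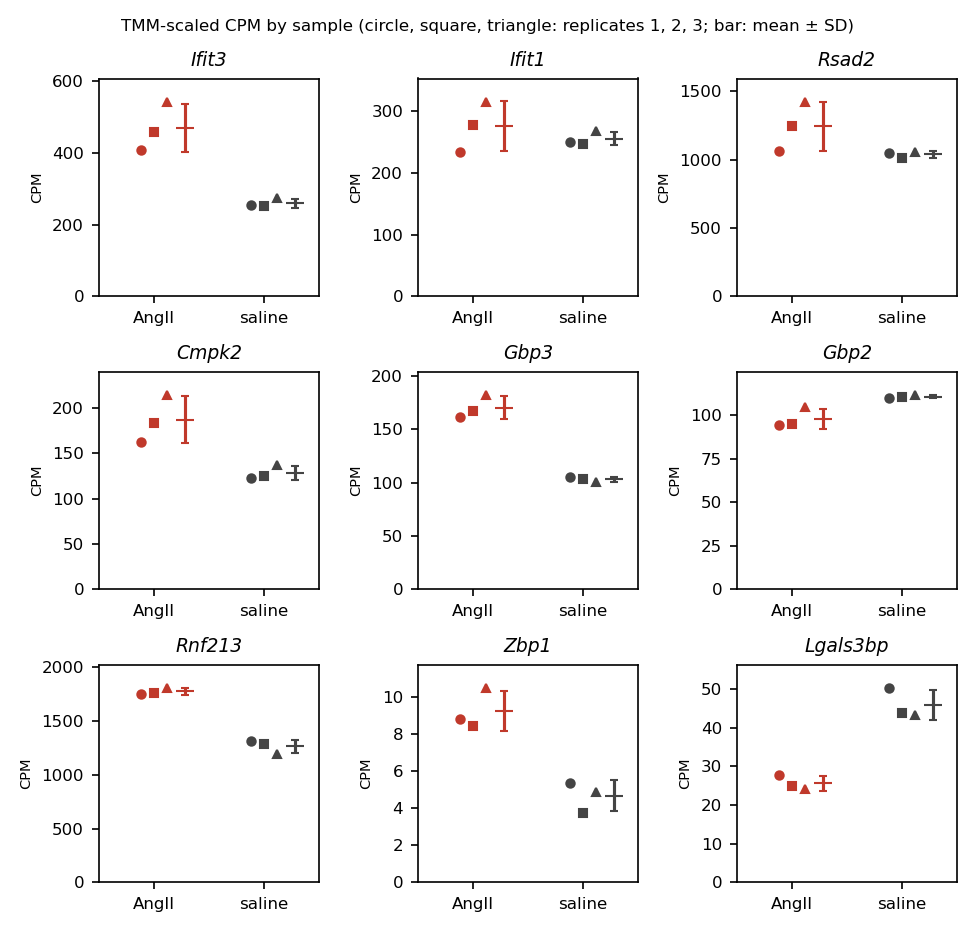
Scaled CPM in each sample for 9 members, with AngII left of saline in each panel, a symbol for each replicate and a bar for the mean ± SD (n = 3). Ifit3, Cmpk2, Gbp3, Rnf213 and Zbp1 are separate and higher in AngII samples, Gbp2 and Lgals3bp separate and lower, and Ifit1 overlaps, with AngII replicate 1 at 233 CPM and AngII replicate 3 at 314 CPM.

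In the OAS family, 3 of 4 members rose, beside 29.0% of all tested genes called higher. OAS enzymes make the oligoadenylates that activate ribonuclease L, whereas mouse OASL1 resembles them but lacks that activity. Oasl2 had 255, 267 and 293 CPM in AngII samples, against 200.3, 192 and 198 CPM in saline samples, and was 1.38-fold higher (edgeR adjusted p = 1.8e-08). Oas2 had 22.3, 20.3 and 23.5 CPM in AngII samples, against 18.2, 17.1 and 16.5 CPM in saline samples, and was 1.28-fold higher (edgeR adjusted p = 2.0e-04). Oas1a had 67.0, 69.2 and 67.6 CPM in AngII samples, against 60.1, 57.0 and 59.4 CPM in saline samples (log2 fold change 0.21, edgeR adjusted p = 1.2e-04). It belongs to a cluster of similar genes, and its counts carried fractions in all 6 columns. The groups of these 3 genes were separate. Oasl1, which restrains the translation of Irf7 mRNA in mice, had 193, 213 and 232 CPM in AngII samples, against 199, 197 and 215 CPM in saline samples, overlapped and did not pass (edgeR adjusted p = 0.28), but did without AngII replicate 1 (log2 fold change 0.13, adjusted p = 0.0090).

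Mx1, the dynamin-like GTPase that blocks influenza viruses in mice with an intact allele, was scarce and had 8.78, 11.1 and 11.3 CPM in AngII samples, against 5.79, 5.03 and 5.68 CPM in saline samples. The groups were separate and the gene was 1.89-fold higher (log2 fold change 0.92 ± 0.109, SE; edgeR adjusted p = 8.8e-07). Of the GTPases that act on the vacuoles of intracellular pathogens, 3 of 5 rose and 1 fell, beside 29.0% of all tested genes higher and 28.6% lower. Gbp3 had 162, 167 and 182 CPM in AngII samples, against 105, 103 and 101 CPM in saline samples, and was 1.65-fold higher (edgeR adjusted p = 3.9e-11), the smallest adjusted p of any member. Its neighbour on chromosome 3, Gbp2, had 94.3, 94.8 and 104 CPM in AngII samples, against 109.5, 110.3 and 111 CPM in saline samples, and was 1.13-fold lower (edgeR adjusted p = 9.7e-04). Both guanylate-binding genes separated the groups, in opposite directions, and both hold an ISRE core before RefSeq's start. Counted from that start, the Gbp2 core begins at -59 and GENCODE's gene start lies at -61. By GENCODE the Gbp2 core therefore lies within the gene. Irgm1, a regulator of the other immunity-related GTPases, had 303, 311 and 347 CPM in AngII samples, against 228, 231 and 244 CPM in saline samples (1.37-fold higher, edgeR adjusted p = 5.1e-08). Gbp7 had 86.5, 91.6 and 97.4 CPM in AngII samples, against 79.8, 74.3 and 71.2 CPM in saline samples (1.22-fold higher, edgeR adjusted p = 3.0e-05). All of these groups were separate except those of Igtp, which, at 37.1 ± 3.55 CPM in AngII samples and 34.5 ± 0.969 CPM in saline samples (SD, n = 3), did not pass (edgeR adjusted p = 0.14), although it did without AngII replicate 1 (log2 fold change 0.17, adjusted p = 0.017).

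ISG15 is joined to proteins by an enzyme cascade and removed by USP18. In this system 3 of the 5 genes rose while 1 fell, beside 29.0% of all tested genes higher and 28.6% lower. Isg15 itself had 51.6, 58.9 and 67.3 CPM in AngII samples, against 45.5, 40.8 and 45.2 CPM in saline samples, and was 1.35-fold higher (edgeR adjusted p = 3.5e-05). Herc6, the main ISG15 ligase of mice, had 95.9, 98.7 and 106 CPM in AngII samples, against 83.0, 80.6 and 80.6 CPM in saline samples (log2 fold change 0.30, edgeR adjusted p = 3.2e-06). Usp18, which also restrains the type I receptor, rose by 0.28 (edgeR adjusted p = 5.3e-05). These groups were separate. Uba7, the activating enzyme, averaged 50.4 ± 2.42 CPM in AngII samples and 48.3 ± 1.09 CPM in saline samples (SD, n = 3) and did not pass (edgeR adjusted p = 0.23). Trim25, a ubiquitin and ISG15 ligase that acts on RIG-I, went the other way, with 287, 289 and 298 CPM in AngII samples, against 371, 359.6 and 371 CPM in saline samples. It was 1.26-fold lower (edgeR adjusted p = 2.7e-08).

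The ADP-ribosyltransferases and their partner DTX3L rose in 4 of 5 cases, beside 29.0% of all tested genes called higher. Parp9 and Dtx3l form a complex and lie beside each other on chromosome 16. Parp9 had 91.4, 93.8 and 100.5 CPM in AngII samples, against 73.8, 77.2 and 77.5 CPM in saline samples, with a log2 fold change of 0.32 (edgeR adjusted p = 1.5e-06). Dtx3l, with 86.9, 91.5 and 91.6 CPM in AngII samples, against 84.8, 78.5 and 79.6 CPM in saline samples, was 1.11-fold higher (edgeR adjusted p = 0.0023). Parp12 had 111, 112 and 123 CPM in AngII samples, against 96.7, 91.3 and 92.4 CPM in saline samples (1.24-fold higher, edgeR adjusted p = 4.3e-06). Parp14 rose by a log2 fold change of 0.26, and the groups of all 4 genes were separate. Parp10, a mono-ADP-ribosyltransferase, had 58.6, 58.6 and 60.4 CPM in AngII samples, against 78.4, 67.6 and 72.0 CPM in saline samples, and was 1.23-fold lower (edgeR adjusted p = 2.4e-05).

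The membrane proteins that hold back viruses at entry or release were the most abundant members per length in saline samples. None of the 3 rose, where 29.0% of all tested genes did. Ifitm3 had 729.7, 740.4 and 758 CPM in AngII samples, against 806, 774 and 801 CPM in saline samples, and was called lower (log2 fold change -0.10, edgeR adjusted p = 0.015), but not without AngII replicate 2 or saline replicate 1 (adjusted p = 0.060 and 0.061). Ifitm2 had 174, 169.6 and 164 CPM in AngII samples, against 189, 189 and 199 CPM in saline samples (log2 fold change -0.18, edgeR adjusted p = 1.5e-04). Once the dependence on GC content and length was taken out, neither was called: Ifitm3 changed sign (log2 fold change 0.02, adjusted p = 0.64) and Ifitm2 lay at -0.02 (adjusted p = 0.58). Bst2, or tetherin, had 435, 427 and 459 CPM in AngII samples, against 468, 451 and 464 CPM in saline samples, and did not pass (log2 fold change -0.07, edgeR adjusted p = 0.10; without AngII replicate 3 it was called lower, at -0.10, adjusted p = 0.013). In that alternative fit Bst2 too changed sign and was called higher (0.08, adjusted p = 0.024), so the direction of Ifitm3 and Bst2 and the call of Ifitm2 depend on that correction.

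Rsad2 encodes viperin, an enzyme that turns CTP into a chain terminator of viral RNA, and lies beside Cmpk2, which encodes a nucleotide kinase, on chromosome 12. Rsad2 had 1061, 1242 and 1422 CPM in AngII samples, against 1049.5, 1011 and 1055 CPM in saline samples, and was higher by 0.26 (log2; edgeR adjusted p = 0.0024). Its lowest AngII sample lay just above the highest saline sample, the call was lost in DESeq2 (adjusted p = 0.069), and the log2 fold change was 0.15 without AngII replicate 3. Cmpk2 had 163, 183 and 214 CPM in AngII samples, against 122, 125 and 137 CPM in saline samples, and was 1.46-fold higher (edgeR adjusted p = 1.7e-06) with separate groups. The other members of the group of RNA and nucleotide effectors did not pass: the RNA exonuclease gene Isg20 (15.7, 16.4 and 15.7 CPM in AngII samples, against 13.6, 14.6 and 15.4 CPM in saline samples; edgeR adjusted p = 0.12), Samd9l, a restrictor of translation (log2 fold change 0.04, adjusted p = 0.25), and the RNA editing enzyme gene Adar (log2 fold change 0.01, adjusted p = 0.80).

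Of the remaining 8 members, 6 rose and 1 fell, beside 29.0% of all tested genes higher and 28.6% lower. Rnf213, a giant ubiquitin ligase whose human gene is linked to the vessel disease moyamoya, had 1748, 1763 and 1806 CPM in AngII samples, against 1309, 1287 and 1192 CPM in saline samples. It was 1.40-fold higher (edgeR adjusted p = 2.1e-09), and unlike most members it varied little between AngII samples (SD 30.2 CPM around 1772). Ifi44 had 143, 151 and 161 CPM in AngII samples, against 107, 105 and 103 CPM in saline samples (1.44-fold higher, edgeR adjusted p = 2.7e-09). Ifi27, which encodes a mitochondrial protein, had 100.4, 100.02 and 104 CPM in AngII samples, against 73.7, 73.7 and 77.9 CPM in saline samples (1.35-fold higher, edgeR adjusted p = 9.1e-09). These 3 had separate groups. Xaf1, a binding partner of the apoptosis inhibitor XIAP, rose by 0.30.

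Smaller calls in this group depended on single samples. Ifi35 (log2 fold change 0.13, edgeR adjusted p = 0.018) and Rtp4 (0.11, adjusted p = 0.028) were called higher. The Ifi35 call was lost in DESeq2 (adjusted p = 0.065) and without AngII replicate 3 (0.080) or saline replicate 2 (0.093). The Rtp4 call was lost in DESeq2 (0.060) and without AngII replicate 2, AngII replicate 3, saline replicate 1 or saline replicate 2 (0.063, 0.19, 0.056 and 0.14), and with the GC and length dependence taken out (0.055). Trim21, a cytosolic antibody receptor, averaged 30.0 ± 3.39 CPM in AngII samples and 28.4 ± 0.877 CPM in saline samples (SD, n = 3; edgeR adjusted p = 0.34). Lgals3bp, which encodes a secreted galectin-binding glycoprotein, fell the most of all members, with 27.9, 24.8 and 24.2 CPM in AngII samples, against 50.3, 43.9 and 43.3 CPM in saline samples. The groups were far apart, and it was 1.79-fold lower (log2 fold change -0.84 ± 0.0645, SE; edgeR adjusted p = 2.9e-09).

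Levels were compared between genes only per length, as CPM per kilobase of annotated exon. Ifitm3 stood at 1096 ± 21.4 in AngII samples and 1171 ± 25.8 in saline samples, and Bst2 at 488 ± 18.3 in AngII samples and 510.4 ± 9.72 in saline samples (SD, n = 3). Next came Ifitm2, at 258 ± 7.86 in AngII samples and 293 ± 8.85 in saline samples, Rsad2, at 286 ± 41.5 in AngII samples and 239.6 ± 5.50 in saline samples, and Ifit3, at 269 ± 38.7 in AngII samples and 149 ± 6.98 in saline samples. Ifitm2 stood above Rsad2 in saline samples by more than their SDs, whereas in AngII samples Rsad2, Ifit3 and Ifitm2 did not differ beyond their spread. At the other end Zbp1 stood at 2.62 ± 0.312 in AngII samples and 1.33 ± 0.233 in saline samples, and Mx1 at 2.74 ± 0.368 in AngII samples and 1.45 ± 0.108 in saline samples. These lowest levels did not differ from each other beyond their spread in either group, and both genes were among the 6 with a rise of at least 1.5-fold. Summed over the 54 members and not corrected for length, counts made up 1.02%, 1.07% and 1.14% of the scaled counts in AngII replicates 1 to 3. The share was 0.933%, 0.911% and 0.926% in saline replicates 1 to 3. Rnf213 weighs most in this sum, with a mean of 1772 CPM in AngII samples and 1263 CPM in saline samples.

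**Figure D4:**
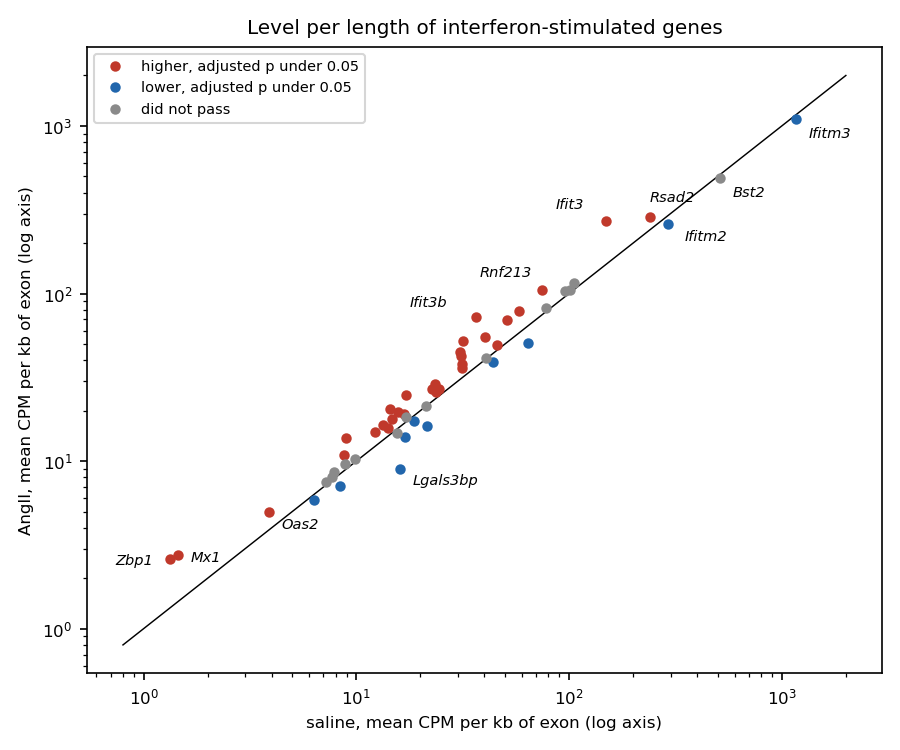
Mean level per kilobase of exon in AngII samples (vertical, log axis) against saline samples (horizontal, log axis) for the 54 members, with the line of equality. Members span from Zbp1, at 1.33 in saline samples, to Ifitm3, at 1171, and the members that rose lie at all levels up to that of Rsad2.

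The other genes of the interferon pathway, from a separate list of 71 symbols, were counted in the same fit. Of 62 tested, 37 rose (59.7%), 14 fell (22.6%) and 11 did not pass, beside 29.0% of all tested genes higher and 28.6% lower, with a median log2 fold change of 0.19, and 36 rose and 14 fell without AngII replicate 3, where 3354 of all 12380 genes tested rose and 3401 fell. Of the receptor kinases, Tyk2 had 42.2, 38.3 and 37.1 CPM in AngII samples, against 46.9, 45.9 and 43.6 CPM in saline samples, and was 1.16-fold lower (edgeR adjusted p = 0.0016). Jak1 averaged 284.5 ± 2.91 CPM in AngII samples and 284.9 ± 2.12 CPM in saline samples (SD, n = 3), a log2 difference of -0.00 ± 0.0290 (SE; edgeR adjusted p = 0.96).

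The rises with the smallest p-values in that list were all guanylate-binding genes. Gbp9 had 432, 432 and 423 CPM in AngII samples, against 232, 232 and 222 CPM in saline samples (1.88-fold, edgeR adjusted p = 4.4e-14). Gbp5 was 2.11-fold and Gbp6 2.07-fold higher. In the same family Gbp4 was 1.55-fold higher, whereas Gbp8 was 1.85-fold lower (edgeR adjusted p = 6.5e-05). The annotated spans of Gbp9, Gbp4 and Gbp8 overlap on chromosome 5, and how reads were divided between them was not checked. Among the falls with the smallest p-values, Ikbke, a kinase that activates IRF3, had 32.3, 30.2 and 27.9 CPM in AngII samples, against 62.7, 58.3 and 56.6 CPM in saline samples, and was 1.97-fold lower (edgeR adjusted p = 3.6e-11). Plscr1, a phospholipid scramblase, was 1.38-fold and Tap1, the peptide transporter of MHC class I loading, 1.21-fold lower. The ligand gene Ifnb1 was below the count filter, with 5, 4 and 2 counts in AngII replicates 1 to 3, against 0, 1 and 0 counts in saline replicates 1 to 3.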

How the data were processed

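RNA was sequenced from 6 samples. The authors deposited 1 table of estimated counts per gene, not scaled to library size; 83.0% of its values were whole. Per the submitters' processing notes, HISAT2 and build mm10 were used; quantifier, annotation and strand setting are not given in the sources used here. Column titles matched the sample titles. Values were rounded and tested in edgeR 4.0.16 (R 4.3.3) with TMM scaling, filterByExpr (minimum count 10, minimum total 15) and the quasi-likelihood F-test, adjusted by Benjamini-Hochberg over 12277 genes, threshold 0.05. The SE is the log2 fold change divided by the square root of F. CPM are TMM-scaled. Exon lengths and coordinates came from GENCODE M21 (GRCm38), which may not be the authors' annotation. The comparison was tested on simulated data.

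The members and lists were chosen with earlier results of these data known. Every member could be named; values per sample are given for receptors, transcription factors, and in each role group up to 3 members with the largest change and all called at 1.5-fold or more. From the other pathway genes, the 3 rises and 3 falls with the smallest p-values, Jak1 and Tyk2 are named, 1 gene of the rule is not reported here, and Ifnb1 was chosen after its values were seen. Genes outside those rules that carry values per sample were chosen likewise. Libraries of the same group varied beyond counting error (chi-square per degree of freedom 2.39 to 5.86). Alternatives were median-of-ratios factors, library totals, other filters, DESeq2 1.42.0, limma-voom (limma 3.58.1), the replicate number as a block, removal of GC and length trends (values for 96.13% of tested genes), and each sample left out.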

Additional observations from a re-analysis of the deposited data

How the results depend on the processing

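Under 15 alternatives, 754 of 810 member values kept their direction and side of the threshold, and 32 of 54 members did so in all of them. The numbers of members called higher and lower stayed within 1.5 times the reported counts, at 27 to 37 and 8 to 11. Over the same alternatives, 3014 to 3788 genes in all were called higher and 3010 to 3704 lower, of 10140 to 17053 tested. The members' median log2 fold change of 0.14 was 0.20 with the GC and length trend removed and 0.19 when the replicate block was added to that, and 0.14 to 0.19 with 1 sample left out; for the other pathway genes the last range was 0.16 to 0.20. At a minimum of 5 CPM, 342 genes in all rose and 382 fell by at least 1.5-fold. Signs turned for Bst2 (0.0844), Ifitm3 (0.0161), Samd9l (-0.00697) and Shisa5 (0.000388) with the GC and length trend removed, and for the same genes with the block added (0.0842, 0.0165, -0.00709 and 0.000279). Adar turned with library totals (-0.00179) and Jak1 without the filter (0.00672). With 1 sample left out, log2 fold changes ran across 0 for Oasl1 (-0.00608 to 0.129), Adar (-0.0162 to 0.0303), Trim21 (-0.0179 to 0.147), Apol9a (-0.00565 to 0.0669), Irf7 (-0.0168 to 0.0590) and Jak1 (-0.0106 to 0.00481). Without a filter, Ifit1 and Ifit2 passed as higher, as did Ifit2 with the replicate block. The cause was not tested. Correlations of deviations between same-numbered samples were 0.08, 0.05 and 0.01, where those between differently numbered samples ran from -0.13 to 0.08. With 3 samples a group these values cannot settle whether the samples were paired. With the replicate block 31 members rose and 10 fell, where 3627 of all 12277 genes tested rose and 3577 fell.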
